A study of Mus musculus with 6 samples.

Results

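The colony-stimulating factors, interleukin-34 and their receptors were described across the cell classes of mouse cerebral cortex after permanent middle cerebral artery occlusion (pMCAO), a model of ischemic stroke. The 8 genes were chosen by symbol from the 32285 genes of the count matrix, with no measured value in the rule: the ligands Csf1, Il34, Csf2 and Csf3 and the receptor genes Csf1r, Csf3r, Csf2ra and Csf2rb. In cells, the deposited counts held 9300 unique molecular identifiers (UMIs, which count captured RNA molecules) of Csf1, 1759 of Il34, 4 of Csf2, 192 of Csf3, 125419 of Csf1r, 8454 of Csf3r, 6299 of Csf2ra and 4991 of Csf2rb.

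CSF-1 and IL-34 are separate ligands of the receptor tyrosine kinase CSF1R, which maintains microglia and most tissue macrophages; in the brain IL-34 is known mainly as a product of neurons. G-CSF, encoded by Csf3, acts through CSF3R on the neutrophil lineage. GM-CSF, encoded by Csf2, binds an alpha chain encoded by Csf2ra that pairs with the common beta chain encoded by Csf2rb.

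Live cells depleted of mature neurons and myelin were sorted from male RGS5::GFP het mice aged 8 to 12 weeks, in which GFP replaces 1 Rgs5 allele in all groups, control side included, so that the pericyte marker Rgs5 itself has 1 intact copy. Cortex contralateral and ipsilateral to the occlusion was taken 1, 12 and 24 h after it, giving 6 samples with 1 library per group and no replicate. The paper used fewer mice for single-cell sequencing than there are libraries, so the libraries are not all separate animals. Tissue was digested warm with enzymes before sorting, and the libraries read the 3′ ends of transcripts. The libraries of the deposited matrix carry only the suffixes 1 to 6, which the sources used here do not tie to a sample, so no value below is assigned to a side or a time, no groups were tested, and each library is reported by its number.

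After cell calling, 17357 cells remained, 1221 to 5873 per library, with library medians of 5053 to 5660.5 UMIs per cell. Clusters were named from marker genes, none of them one of the 8 genes, into 14 classes of 22 to 8131 cells. Each class is called by its markers ("microglia-like") and 483 cells stayed unnamed. Genes said to lead a cluster are among those highest in it against all other cells, and are not always the first. Libraries 4 and 6 stood apart: they held 109 and 214 of 327 monocyte-derived macrophage-like cells and 791 and 550 of 1382 cells of microglial cluster 5 (led by Lpl, Ccl12 and Gpr84). The 6 libraries shared 26 cell barcodes. Levels are UMIs summed over the cells of a class and given per 1000000 UMIs of those cells (CPM), with an exact 95% Poisson interval in brackets, and shares of cells carry exact Clopper-Pearson intervals. These intervals, and the limits given for counts of 0, cover counting error only and not the spread between animals. Those of levels and ratios also leave out the spread between cells of a class.

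**Figure D1:**
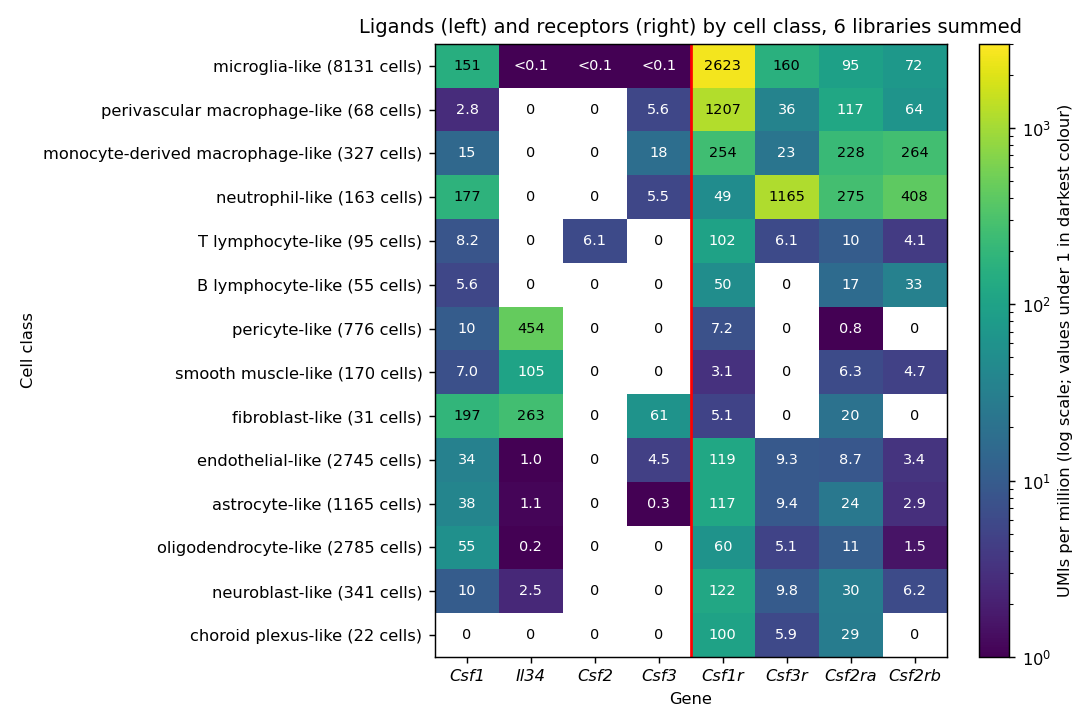
Level of each gene in each of the 14 cell classes, in CPM with the 6 libraries summed (log colour scale, white for 0 UMIs), with ligands left and receptors right of the red line. Il34 stood at 454 CPM in pericyte-like cells and under 0.1 CPM in microglia-like cells, where Csf1r stood at 2623 CPM.

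Il34 was carried by cells of the vessel wall. The gene lies at chr8:110741829-110805924 on the minus strand (GRCm38, GENCODE vM21) and overlaps Gm15894 and Gm15895 on the other strand. Its level was 454 CPM (429 to 481) in the 776 pericyte-like cells, 263 CPM (196 to 345) in the 31 fibroblast-like cells and 105 CPM (87.9 to 124) in the 170 smooth muscle-like cells. Pericyte-like cells held 67.9% of all Il34 UMIs in cells, smooth muscle-like cells 7.62%, fibroblast-like cells 2.96% and unnamed cells 19.4%. The pericyte-like level was 1.73 times that of fibroblast-like cells (1.31 to 2.33), 4.33 times that of smooth muscle-like cells (3.62 to 5.22) and 470 times that of endothelial-like cells (268 to 912), each larger than counting error. Il34 UMIs were found in 548 of 776 pericyte-like cells (70.6%, 67.3% to 73.8%) and in 3 of 8131 microglia-like cells (0.0369%), at median depths of 3225.5 and 5150 UMIs. With each cell thinned to 1000 UMIs, 32.2% of pericyte-like cells kept a UMI. Among barcodes of 1 to 50 UMIs, which hold free RNA rather than cells, Il34 stood at 4.77 to 14.7 CPM per library, above the 0.967 CPM of endothelial-like cells. No Il34 UMI was seen in 327 monocyte-derived macrophage-like cells, which allows a level of up to 0.987 CPM. Mature neurons were depleted before sorting, so the known neuronal source was not measured.

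The Il34 level of pericyte-like cells was 409 CPM in library 1, 330 CPM in library 2, 395 CPM in library 3, 414 CPM in library 4, 701 CPM in library 5 and 608 CPM in library 6. Libraries 5 and 6 lay above the other four, whose intervals overlapped one another. Smooth muscle-like cells had 104, 113 and 128 CPM in libraries 3, 5 and 6, those with at least 20 such cells, and every one of these lay below the pericyte-like level of its own library.

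Clustering the mural cells again showed how Il34 varied within the vessel wall. The 5 subclusters of pericyte-like cells ranged from 330 to 543 CPM. Mural subcluster 9, 34 unnamed cells led by Ccl19, Col3a1 and Ogn, had 924 CPM (773 to 1096) with Il34 in 32 of its cells, 2.03 times the pericyte-like level (1.69 to 2.44). Mural subcluster 6, 55 cells led by Il11 and Ccl11 from libraries 4 (22 cells) and 6 (33 cells) alone, had the highest mean of the response genes Ccl7, Cxcl1, Mt1, Ccl11 and Cxcl2 among the 11 mural subclusters. Its Il34 level was 277 CPM (221 to 343), 0.609 times that of pericyte-like cells (0.483 to 0.761). Within library 4 the ratio was 0.612 (0.393 to 0.920) and within library 6 it was 0.476 (0.347 to 0.647), so Il34 was lower in these cells inside each of the libraries that held them.

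**Figure D2:**
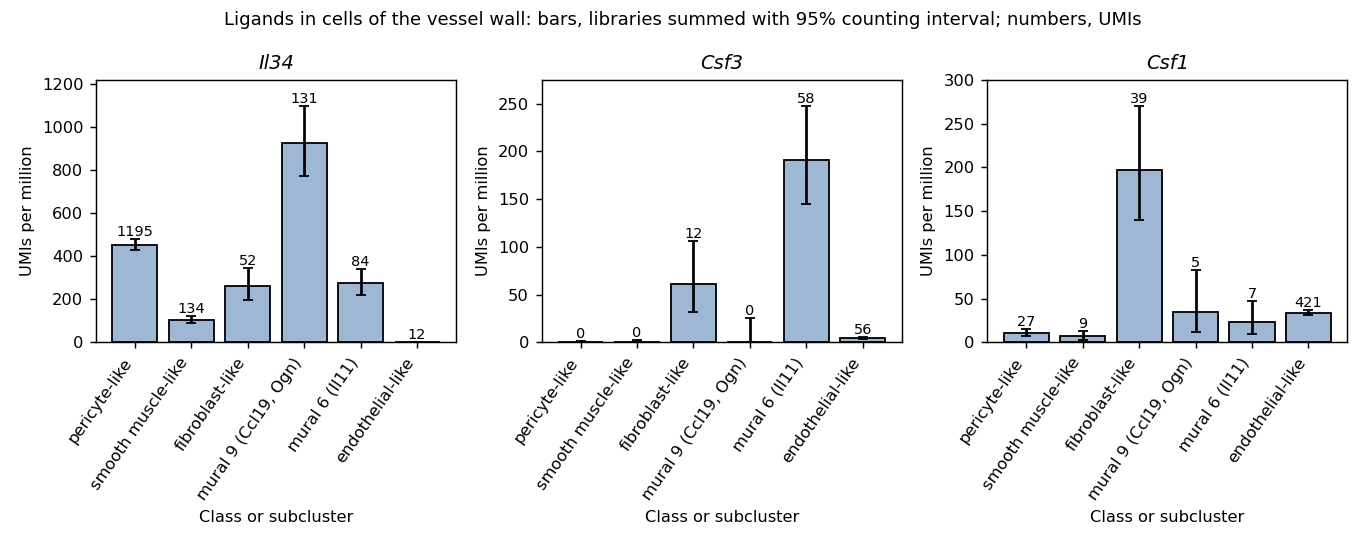
Il34, Csf3 and Csf1 in classes and mural subclusters of the vessel wall, in CPM with the libraries summed; error bars are 95% counting intervals and the numbers are UMIs. Il34 stood highest in mural subcluster 9 at 924 CPM, Csf3 in mural subcluster 6 at 191 CPM and Csf1 in fibroblast-like cells at 197 CPM.

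Csf1, the other CSF1R ligand, was instead carried by microglia-like cells, oligodendrocyte-like cells and a few rarer classes. The gene lies at chr3:107741048-107760469 on the minus strand (GRCm38, GENCODE vM21). Its level was 197 CPM (140 to 270) in fibroblast-like cells, 177 CPM (143 to 216) in neutrophil-like cells and 151 CPM (148 to 155) in microglia-like cells. Over all libraries these top levels did not differ beyond counting error: the ratio of fibroblast-like to neutrophil-like cells was 1.12 (0.750 to 1.64) and that of neutrophil-like to microglia-like cells 1.17 (0.945 to 1.43). The order of the rarer classes rested on single libraries. Library 2 had 966 CPM in 16 neutrophil-like cells and 582 CPM in 7 fibroblast-like cells, and without it these classes stood at 114 CPM (86.6 to 147) and 121 CPM (74.0 to 187), with the neutrophil-like level 0.751 times the microglia-like level (0.570 to 0.973). Without library 4 the ratio of neutrophil-like to microglia-like cells was 2.52 (1.98 to 3.15) and that of fibroblast-like to neutrophil-like cells 0.749 (0.494 to 1.12), and without library 6 the latter was 1.66 (1.04 to 2.58). Oligodendrocyte-like cells came lower at 55.2 CPM (52.3 to 58.2), with microglia-like cells 2.74 times higher (2.59 to 2.91). Astrocyte-like cells at 38.1 CPM (33.7 to 42.9) and endothelial-like cells at 33.9 CPM (30.8 to 37.3) did not differ from each other beyond counting error. Pericyte-like cells, the leading source of Il34, had 10.3 CPM of Csf1 (6.77 to 14.9). By cell numbers, microglia-like cells held 73.3% of all Csf1 UMIs and oligodendrocyte-like cells 15%.

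The 250 bases before the RefSeq start of Csf1, chr3:107760470-107760719 on the minus strand (GRCm38.p6), are shown because of its levels in microglia, described next. Among the microglial clusters Csf1 stood highest in cluster 5. The 5 NF-kB target genes and the 8 immediate-early and dissociation genes listed were also higher there than in cluster 0. Capitals mark the only match to the NF-kB consensus, which begins 154 bases before the start and reads as the motif on the other strand; 7.25% of 32851 promoter windows of the same length held such a match on either strand.
Csf1: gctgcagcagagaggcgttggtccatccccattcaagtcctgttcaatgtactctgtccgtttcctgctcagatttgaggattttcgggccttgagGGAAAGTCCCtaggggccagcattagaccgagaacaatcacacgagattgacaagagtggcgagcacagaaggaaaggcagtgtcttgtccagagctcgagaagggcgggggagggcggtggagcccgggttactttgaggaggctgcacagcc
A match is a description of the letters and not a measured site, and a link to the Csf1 level was not tested. The window held no AP-1 motif (TGANTCA, in 6.75% of windows) and no PU.1-type core (GAGGAA, in 23.3%).

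Among microglia-like cells, Csf1 and Csf1r ran in opposite orders over the 4 clusters of at least 100 cells. Csf1 stood at 12.9 CPM in cluster 0 (2370 cells, led by the hemoglobin gene Hbb-bt and by P2ry12) and 51.2 CPM in cluster 1 (2344 cells, Maf). It stood at 214 CPM in cluster 2 (1990 cells, Atf3 and Egr1) and 337 CPM in cluster 5 (1382 cells, Lpl, Ccl12 and Gpr84). Cells with a Csf1 UMI made up 4.85%, 12.0%, 31.7% and 40.9% of these clusters, and 1.77%, 4.01%, 13% and 17.4% after thinning to 1000 UMIs. Csf1r stood at 3391, 3074, 2430 and 1534 CPM in clusters 0, 1, 2 and 5. Cluster 5 thus had 26.1 times the Csf1 of cluster 0 (22 to 31.2) and 0.452 times its Csf1r (0.444 to 0.461). Within libraries 3, 4 and 6, which held at least 20 cells of cluster 5, the Csf1 ratio was 19.9, 26.9 and 22.9 and the Csf1r ratio 0.558, 0.447 and 0.505. After thinning, Csf1 UMIs were found in 7.90% of microglia-like cells, Csf1r UMIs in 90.4% and both together in 6.27%. With Csf1r in most cells, the joint share mainly follows the Csf1 share, and a relation between the genes was not tested.

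The receptor genes of the other factors did not share 1 pattern over the same clusters. Csf3r stood at 187, 193 and 179 CPM in clusters 0, 1 and 2 and at 72.5 CPM in cluster 5, 0.387 times cluster 0 (0.355 to 0.422). That difference was present in libraries 4 and 6 (ratios of 0.419 and 0.411) and not in library 3, where the ratio was 1.07 (0.750 to 1.49) over 26 cells of cluster 5. Csf2rb stood at 54.6, 58.7, 57.2 and 123 CPM, 2.26 times higher in cluster 5 than in cluster 0 (2.04 to 2.50), with ratios of 0.977, 1.86 and 2.04 within libraries 3, 4 and 6. Csf2ra stood at 89.0, 92.1, 89.9 and 112 CPM. Its ratio of cluster 5 to cluster 0 was 1.26 (1.15 to 1.38) over all libraries, 1.43 within library 4 (1.24 to 1.66) and 0.851 within library 6 (0.621 to 1.19), and without library 4 it was 0.927, so its direction rested on that library.

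Read against all genes, 6.42% of 8666 genes of at least 10 CPM were at least 2-fold higher in cluster 5 than in cluster 0 (both levels raised by 10 CPM), and 6.47% were at least 2-fold lower. Of the 5 genes of the group that reached this level, Csf1 (15.1-fold) and Csf2rb (2.06-fold) were past the fold upward, Csf1r (0.454) and Csf3r (0.418) downward, and Csf2ra (1.23) was not past it. Il34, Csf2 and Csf3 were too low in microglia-like cells to be counted. The clusters were made from the same cells, so these folds are a description with no test. Genes of resting microglia were lower in cluster 5 (5 of 5, with P2ry12 at 426 against 2734 CPM), while 6 of 7 genes of activated microglia and 5 of 5 NF-kB target genes were at least 2-fold higher, Tnf standing at 441 against 8.60 CPM. The 8 immediate-early and dissociation genes were higher too, and Atf3 stood at 65.0, 1212, 5206 and 2739 CPM in clusters 0, 1, 2 and 5. Their part in the Csf1 difference was not tested.

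**Figure D3:**
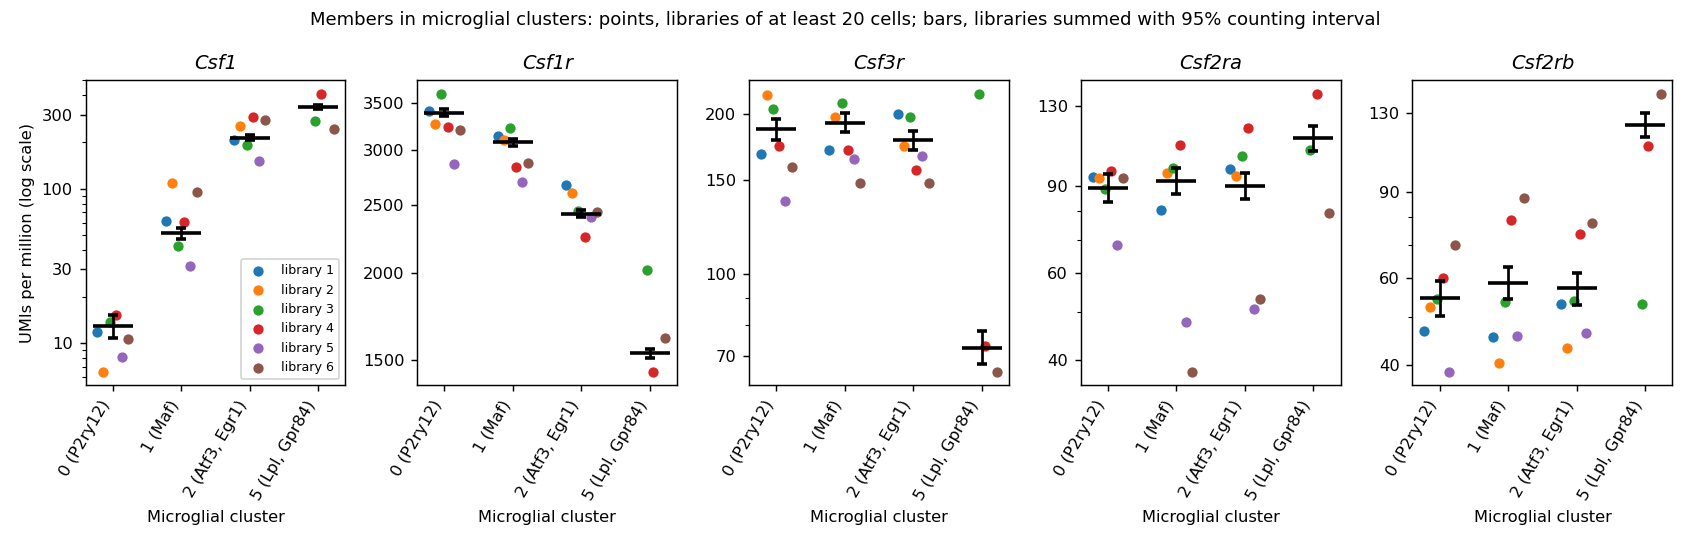
Csf1, Csf1r, Csf3r, Csf2ra and Csf2rb in the 4 microglial clusters of at least 100 cells, in CPM on log axes; points are libraries with at least 20 cells in the cluster, and bars give the summed libraries with a 95% counting interval. Csf1 went from 12.9 CPM in cluster 0 to 337 CPM in cluster 5, and Csf1r from 3391 to 1534 CPM.

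The share of each cluster differed between libraries, and so did the microglia-like levels. Over all microglia-like cells, Csf1 stood at 117, 145, 79.2, 243, 90.8 and 219 CPM in libraries 1 to 6, highest in libraries 4 and 6. Csf1r stood at 2975, 2941, 3111, 2212, 2577 and 1970 CPM, lowest in the same libraries, and Csf3r at 183, 192, 205, 127, 159 and 92.4 CPM. Csf2rb was 88.3 and 122 CPM in libraries 4 and 6 and 45.3 to 54.1 CPM in the others, whereas Csf2ra was highest in library 4 at 120 CPM and lowest in library 5 at 54.1 CPM. The highest library was at least 2 times the lowest for Csf1 (3.07), Csf2rb (2.69), Csf2ra (2.23) and Csf3r (2.22) and not for Csf1r (1.58), where 32.9% of 8144 genes of at least 10 CPM in these cells passed the same bound. Inside a cluster the spread was smaller for Csf1r, from 2863 to 3610 CPM in cluster 0 and from 2252 to 2673 CPM in cluster 2. Csf1 in cluster 2 ranged from 152 CPM in library 5 to 292 CPM in library 4, and in cluster 0 from 6.55 to 15.3 CPM, so that no library of cluster 0 reached any library of cluster 2.

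Outside microglia, Csf1 in oligodendrocyte-like cells stood at 61.3, 49.4, 40.4, 66.0, 52.2 and 70.6 CPM in libraries 1 to 6. Oligodendrocyte cluster 11, led by Enpp6 and Klk6, had 90.01 CPM (80.8 to 100), and clusters 4, 8 and 18 had 47.4, 50.3 and 56.9 CPM. Csf1 stood at 40.3 to 98.6 CPM in the barcodes of 1 to 50 UMIs, below the oligodendrocyte-like level of the same library in libraries 1 and 6 and above it in the others. Per 100 Csf1r UMIs, oligodendrocyte-like cells had 91.5 Csf1 UMIs (85.1 to 98.5), astrocyte-like cells 32.7 and endothelial-like cells 28.5. Microglia-like cells had 5.77 and the free-RNA barcodes 10.7 (10.0 to 11.4). The source of the Csf1 UMIs in these classes was not tested. Astrocyte-like cells had 26.2 to 41.2 CPM in libraries 1 to 5 and 86.1 CPM in library 6. In endothelial-like cells library 1 was lowest at 5.15 CPM and the others stood at 21.4 to 43.5 CPM. Endothelial cluster 9, with Lcn2 and Ackr1 among its leading genes, was found mainly in libraries 4 and 6. With the libraries summed it had 1.56 times the Csf1 of cluster 3 (1.25 to 1.93). Cluster 3 ranged from 2.17 CPM in library 1 to 38.8 CPM in library 4. Cluster 9 had 52.9 CPM in library 4, 37.4 CPM in library 6 and 176 CPM on 21 cells of library 3. Endothelial cluster 14 had 38.5 CPM in library 6. The part of the libraries in the summed ratio was not tested.

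Csf3, encoding G-CSF, was rare and was found almost wholly in 2 libraries. It lies at chr11:98701263-98703629 on the plus strand (GRCm38, GENCODE vM21). Of its 192 UMIs, 151 came from library 6, 39 from library 4, 1 each from libraries 1 and 3, and none from libraries 2 and 5. In mural subcluster 6, the Il11- and Ccl11-led cells, 58 UMIs lay in 6 of 55 cells, a level of 191 CPM (145 to 247). The 776 pericyte-like cells of all libraries had none, which allows up to 1.14 CPM. Of the genes of at least 10 CPM in either, 7.49% of 9008 were at least 2-fold higher in subcluster 6 than in pericyte-like cells. The top cell carried 25 UMIs, and the level of the remaining cells was 110 CPM. By library the level of subcluster 6 was 84.4 CPM (9 UMIs) in library 4 and 249 CPM (49 UMIs) in library 6. The 120 and 80 pericyte-like cells of these libraries had no Csf3 UMI. The limit of 1.14 CPM includes libraries with almost no Csf3. It is higher for libraries 4 and 6 alone, where it was not computed. Endothelial cluster 9 held 56 UMIs in 12 of 540 cells (20.4 CPM, 15.4 to 26.5), of which 31 lay in a single cell of library 6, and 9.18 CPM remained without it. Monocyte-derived macrophage-like cells had 18.1 CPM (13.6 to 23.5), 38 of their 55 UMIs in 10 cells of myeloid subcluster 3, which is led by Gpnmb, Clec4n and Spp1, and 9.46 CPM without library 6. All 12 UMIs of fibroblast-like cells came from 1 cell. In barcodes of 1 to 50 UMIs, Csf3 stood at 3.87 CPM in library 4 and 9.97 CPM in library 6 and had no UMI in the other libraries.

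Csf2, encoding GM-CSF, lies at chr11:54247271-54249667 on the minus strand (GRCm38, GENCODE vM21) and overlaps Gm12223 on the other strand. Only 4 UMIs were counted in all cells, all in library 3, of which 3 lay in 2 T lymphocyte-like cells and 1 in a microglia-like cell. At this depth no level could be compared between classes.

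Csf1r marked microglia-like cells. Its level was 2623 CPM (2608 to 2638) in them, 1207 CPM (1096 to 1326) in perivascular macrophage-like cells and 254 CPM (237 to 273) in monocyte-derived macrophage-like cells. Microglia-like cells held 94.2% of its UMIs and stood 2.17 times above perivascular macrophage-like cells (1.98 to 2.39). Among the myeloid subclusters left unnamed, those led by Retnla and Mgl2 (47 cells) and by Fabp4 and Ear2 (36 cells) had 544 and 539 CPM, and the 101 cells led by H2-Ab1 and Cd209a had 68.7 CPM. By library, perivascular macrophage-like cells ranged from 1060 to 1734 CPM on 2 to 24 cells each.

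Csf1r UMIs were also found in classes that are not myeloid, at 60.3 CPM in oligodendrocyte-like, 119 CPM in endothelial-like, 117 CPM in astrocyte-like and 122 CPM in neuroblast-like cells. These levels lay under those of the barcodes of 1 to 50 UMIs, 374 to 1049 CPM per library. Few cells carried them: 137 of 2745 endothelial-like cells (4.99%, with 67 UMIs in the top cell) and 18 of 776 pericyte-like cells (2.32%, with 2 in the top cell), at median depths of 4039 and 3225.5 UMIs, against 99.4% of microglia-like cells. The microglial gene Tmem119 stood at 57.2 UMIs per 100 Csf1r UMIs in microglia-like cells (56.7 to 57.7), and at 56.8 in oligodendrocyte-like, 54.8 in endothelial-like and 56.2 in astrocyte-like cells. In neuroblast-like cells it stood at 48.7 (40.1 to 58.9) and in the free-RNA barcodes at 71.9 (69.7 to 74.2). Csf2rb stood at 2.75 per 100 in microglia-like cells, at 2.56, 2.84 and 2.49 in oligodendrocyte-, endothelial- and astrocyte-like cells, at 5.08 (2.92 to 8.25) in neuroblast-like cells and at 3.54 (3.16 to 3.95) in the free-RNA barcodes. Csf3r stood at 6.12 per 100 in microglia-like cells (5.97 to 6.27) and at 8.19 in the free-RNA barcodes. It was higher than in microglia-like cells beyond counting error in oligodendrocyte-like (8.399, 6.96 to 10.1) and endothelial-like cells (7.85, 6.44 to 9.49). The intervals of astrocyte-like (8.08, 6.21 to 10.4) and neuroblast-like cells (8.06, 5.23 to 11.9) overlapped that of microglia-like cells. The source of these UMIs was not tested.

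Csf3r, the G-CSF receptor gene, was highest in neutrophil-like cells. It lies at chr4:126024550-126044440 on the plus strand (GRCm38, GENCODE vM21). Its level was 1165 CPM (1077 to 1259) there and 160 CPM (157 to 164) in microglia-like cells, a ratio of 7.26 (6.69 to 7.88). The order held in 3 of 3 libraries with at least 20 cells of each class. Neutrophil-like cells stood at 1555 CPM in library 3, 1148 CPM in library 4 and 1114 CPM in library 6, and at 1338 CPM on 16 cells of library 2. Csf3r was found in 90.2% of neutrophil-like cells (84.6% to 94.3%) and 54.2% of microglia-like cells (53.2% to 55.3%), or in 66.9% and 15.6% after thinning. Because microglia-like cells were so many, they still held 85.5% of all Csf3r UMIs and neutrophil-like cells 7.57%. Monocyte-derived macrophage-like cells had 22.7 CPM (17.7 to 28.7), of which subcluster 4, led by Plac8, Chil3 and Ccr2, had 53.1 CPM and subcluster 3 had 1.25 CPM. No Csf3r UMI was counted in the 101 cells of myeloid subcluster 2 (led by H2-Ab1 and Cd209a), which allows up to 2.58 CPM, nor in pericyte-like cells, which allows up to 1.14 CPM.

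Of the 6 genes of the group with at least 200 UMIs, only Csf3r was at least 4 times higher in its leading class than in the next, and Csf3r and Csf1r were at least 2 times higher. Over all 12939 genes with at least 200 UMIs these shares were 10.6% and 25.9%, so the counts of 1 and 2 of 6 are close to those of any gene measured.

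The GM-CSF receptor genes shared their leading classes. Csf2ra lies at chr19:61223957-61228429 on the minus strand and Csf2rb at chr15:78325752-78353847 on the plus strand (GRCm38, GENCODE vM21). Csf2ra stood at 275 CPM (233 to 323) in neutrophil-like, 228 CPM (212 to 246) in monocyte-derived macrophage-like, 117 CPM (84.2 to 158) in perivascular macrophage-like and 95.3 CPM (92.5 to 98.2) in microglia-like cells. Csf2rb stood at 408 CPM (356 to 465), 264 CPM (246 to 283), 64.0 CPM (40.6 to 96.0) and 72.1 CPM (69.6 to 74.6) in the same classes. Neutrophil-like cells were above monocyte-derived macrophage-like cells by 1.55 times for Csf2rb (1.33 to 1.79), in 2 of 2 libraries with enough cells. For Csf2ra the ratio was 1.21 (1.00 to 1.44) and the order held in 1 of 2 libraries, with 331 against 264 CPM in library 4 and 159 against 208 CPM in library 6. Microglia-like and perivascular macrophage-like cells did not differ beyond counting error for either gene.

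The 250 bases before the RefSeq start of Csf2ra, chr19:61228419-61228668 on the minus strand (GRCm38.p6), are shown because the gene was found across all the myeloid classes. Capitals mark 2 adjacent matches to GAGGAA, a core bound by the myeloid factor PU.1, which begin 14 and 8 bases before the start. Of 32851 promoter windows of the same length, 23.3% held GAGGAA on either strand. GENCODE starts the gene earlier, so the last 11 bases of this window, part of the matches included, lie inside the gene by the coordinates given above.
Csf2ra: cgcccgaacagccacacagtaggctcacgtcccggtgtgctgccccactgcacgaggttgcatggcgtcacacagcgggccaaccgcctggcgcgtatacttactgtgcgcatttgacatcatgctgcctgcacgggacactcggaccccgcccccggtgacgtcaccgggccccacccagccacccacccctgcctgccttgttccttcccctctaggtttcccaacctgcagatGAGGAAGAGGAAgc
Here too a match describes the letters and is not a measured site, and a link to the Csf2ra level was not tested. The Csf2ra window held no NF-kB or AP-1 match, and the matching Csf3r window held 1 GAGGAA and 1 NF-kB match. RefSeq promoter entries were at hand for 4 of the 8 genes (Csf1, Csf2, Csf3r and Csf2ra).

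Outside the myeloid classes Csf2ra and Csf2rb parted. Csf2ra stood at 24.4 CPM (20.9 to 28.3) in astrocyte-like and 29.9 CPM (23.7 to 37.1) in neuroblast-like cells, where Csf2rb had 2.91 and 6.19 CPM. Both Csf2ra levels lay within the 19.2 to 62.3 CPM per library of the free-RNA barcodes. Astrocyte-like cells had 13.4 CPM in library 4 and 49.6 CPM in library 2, against 62.3 and 23.5 CPM in the barcodes. Neuroblast-like cells had 16.5 CPM in library 5 and 40.3 CPM in library 4, against 19.2 and 62.3 CPM. Relative to 100 Csf1r UMIs, Csf2ra stood at 3.63 in microglia-like cells and 6.37 in the free-RNA barcodes, against 20.9 (17.7 to 24.6) in astrocyte-like, 24.5 (19.0 to 31.3) in neuroblast-like and 17.7 (15.5 to 20.1) in oligodendrocyte-like cells. In all these classes the Csf2ra ratio lay above that of the free-RNA barcodes beyond counting error. The Csf2rb ratio was 2.49 (1.54 to 3.84) in astrocyte-like, 2.56 (1.81 to 3.52) in oligodendrocyte-like and 5.08 (2.92 to 8.25) in neuroblast-like cells, each with an interval overlapping that of the free-RNA barcodes, 3.54 (3.16 to 3.95). Csf2ra was found in 12.45% of astrocyte-like cells, and in 3.09% after thinning. Where the Csf2ra UMIs of these classes came from was not tested.

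Csf2rb has a close copy, Csf2rb2, 20 kb away on the other strand, which encodes a beta chain used by IL-3. The longest transcripts shared 18.4% of the 50-base words of Csf2rb and 19.0% of those of Csf2rb2, but none in their last 500 bases, the end that the libraries read. Reads from the shared stretches may not have been counted for either gene. Csf2rb2 had 43.1 CPM in monocyte-derived macrophage-like and 41.9 CPM in neutrophil-like cells.

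Neutrophil-like cells fell into a pair of subclusters in which the genes differed. S100a8 and S100a9 were among the leading genes of both. The leading genes of myeloid subcluster 1 (111 cells) also held Camp and Ngp, and those of subcluster 6 (52 cells) Acod1, Hdc and Il1f9. Csf3r was 794 CPM in subcluster 6 against 1316 CPM in subcluster 1, a ratio of 0.603 (0.492 to 0.734), and Csf2ra was 164 against 320 CPM, a ratio of 0.512 (0.322 to 0.785). Csf2rb ran the other way, at 630 against 318 CPM and a ratio of 1.98 (1.51 to 2.60). Csf1 was 397 against 87.1 CPM, a ratio of 4.56 (2.96 to 7.13), though 26 of its 63 UMIs in subcluster 6 came from 2 cells of library 2. Without library 2 the Csf1 ratio was 4.2 (2.39 to 7.55). Only library 4 held at least 20 cells of each, 20 of subcluster 6 and 61 of subcluster 1. There Csf1 was 117 against 58.7 CPM, a smaller difference than over all libraries. In the same library Csf3r was 601 against 1297 CPM, Csf2ra 200 against 366 CPM and Csf2rb 584 against 348 CPM. No interval was computed for these differences within library 4. Over all neutrophil-like cells Csf1 stood at 966 CPM in library 2 on 16 cells, and at 72.7, 71.1 and 223 CPM in libraries 3, 4 and 6.

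**Figure D4:**
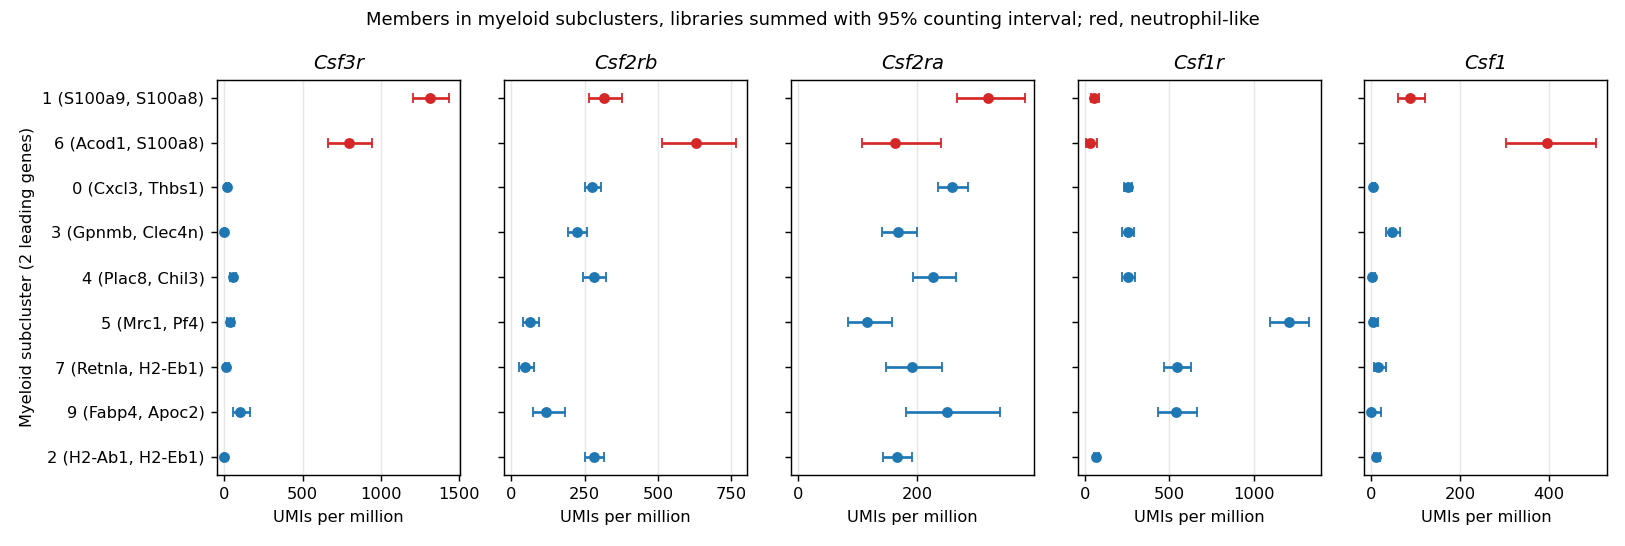
Csf3r, Csf2rb, Csf2ra, Csf1r and Csf1 in 9 myeloid subclusters, each named by 2 of its leading genes, in CPM with the libraries summed and 95% counting intervals; red points are neutrophil-like. Csf3r was high in the neutrophil-like subclusters (1316 and 794 CPM) and Csf1r in the Mrc1- and Pf4-led perivascular macrophage-like subcluster (1207 CPM).

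With the libraries summed, the macrophage subclusters had like levels of Csf1r and differed in the other genes. Subcluster 0 (167 cells, led by Cxcl3, Thbs1 and Arg1), subcluster 3 (88 cells) and subcluster 4 (72 cells) had 254, 255 and 255.5 CPM of Csf1r. Csf2ra stood at 260, 169 and 227 CPM and Csf2rb at 277, 224 and 281 CPM, lowest in subcluster 3 for each gene in these sums. For Csf2rb the order was not firm. Subcluster 4 stood at 217 CPM in library 4, which held 58 of its 72 cells. Csf1 was 47.5 CPM (33.6 to 65.2) in subcluster 3 and 3.88 and 1.44 CPM in subclusters 0 and 4. Of the 88 cells of subcluster 3, 86 came from library 6, which also held 118 cells of subcluster 0. Within library 6, subcluster 3 had 48.7 CPM of Csf1 against 4.54 CPM in subcluster 0. Csf2ra was 169 against 239 CPM there, Csf2rb 225 against 272 CPM and Csf1r 251 against 280.5 CPM. Subcluster 4 had only 10 cells in library 6, so between subclusters 3 and 4 library and state cannot be told apart. Library 4 held 49 cells of subcluster 0 and 58 of subcluster 4. There Csf2rb was 289 against 217 CPM, Csf2ra 311 against 230 CPM and Csf1r 187 against 244 CPM. The like summed levels of Csf2rb and Csf1r in subclusters 0 and 4 were thus not seen inside library 4. No interval was computed for the differences within libraries. The H2-Ab1- and Cd209a-led subcluster 2 had 283 CPM of Csf2rb and 166 CPM of Csf2ra beside its low Csf1r.

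The rest of the pathway was followed through 25 genes. Of the other ligands and receptors of the beta chain family, Il3 had no UMI in any named class, Il5 reached 0.0396 CPM and Il3ra was highest in perivascular macrophage-like cells at 27.8 CPM. Ptprz1, encoding another receptor for IL-34, stood at 1919 CPM in astrocyte-like cells, and Sdc1, encoding the IL-34-binding syndecan-1, at 111 CPM in monocyte-derived macrophage-like cells. Sdc1 was not confined to macrophages. It stood at 145 CPM (105 to 195) in mural subcluster 6, against 0.76 CPM in pericyte-like cells. Adam17, encoding a sheddase that releases CSF1R from the membrane, was highest in microglia-like cells at 129 CPM. Tyrobp, an adaptor of myeloid receptor signalling, was highest in neutrophil-like cells at 5049 CPM. Among the transcription factors of the myeloid lineage, Spi1 and Cebpb were highest in neutrophil-like cells (686 and 4483 CPM), Irf8 and Cebpa in microglia-like cells (492 and 237 CPM) and Runx1 in perivascular macrophage-like cells (615 CPM). Between microglial clusters 5 and 0, 16 of the 25 genes were high enough to count: 2 were at least 2-fold higher in cluster 5, Socs3, encoding a feedback inhibitor of cytokine signalling (5.25-fold), and Cebpb (2.13-fold), and none were at least 2-fold lower. The median fold of these genes was 0.913, beside 0.926 over all genes counted. Tyrobp was at 0.572 times its cluster 0 level and Spi1 at 0.976 times.

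The genes most like each one over the 14 classes were found by the Pearson correlation of log2(CPM + 10), a description across classes that share libraries. Il34 was nearest to Foxd1 (r = 0.9995), encoding a transcription factor of the pericyte lineage, and to C1qtnf2 (0.998). Outside pericyte-, fibroblast- and smooth muscle-like cells Il34 stood at 2.55 CPM or less, so these correlations rest on those classes. Csf1r was nearest to Trem2 (0.970), C1qb (0.965) and C1qc (0.947). Csf3r was nearest to Tlr6 (0.982) and Trpm2 (0.970), Csf2ra to Cd14 (0.966) and Csf2rb to Csf2rb2 (0.984), then to Rab32 (0.979). Csf1 had no gene as close, the nearest being Spidr at 0.850.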

How the data were processed

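Single-cell libraries of 6 samples were counted by the authors with Cell Ranger (version 5 and mm10 per the labels' processing notes), and Cell Ranger's aggregation evened out sequencing depth, so deposited counts of the deeper libraries may already be thinned. The authors deposited UMI counts per gene and barcode for all 6 libraries in a pooled matrix with numbered suffixes. The labels give the v3 kit at 1 and 24 h and v3.1 at 12 h; the study's methods name v3.1 throughout, and the 24 h samples ran on another sequencer.

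Barcodes with at least 0.1 of the 99th percentile of UMIs of the 3000 deepest barcodes of their library were kept, with at least 200 genes and at most 10% mitochondrial counts (17357 cells; 19864 under the study's filters alone). Counts were scaled to 10000 per cell and logged, and 2000 variable genes, 30 principal components, 20 neighbours and Leiden resolution 0.8 (seed 1) gave 26 clusters. Myeloid and mural cells were clustered again with 15 components. The 8 genes and others, 15 in all, and hemoglobin genes took no part. A class needed 3 markers raised at least 2-fold over the median cluster (CPM + 10). Its mean log2 marker score also had to lead that of the next class by at least 1. Clusters of mixed markers stayed unnamed. Doublets were simulated (2 per cell), and the 1.80% of cells called as doublets were kept. Leaving them out moved none of the 17 ratios checked beyond counting error. Levels of oligodendrocyte-, endothelial- and astrocyte-like cells, with 2.4%, 2.8% and 4.6% called, were not computed again without them. Named genes were the 8 genes, the 25 pathway genes, the markers and the 3 genes most alike. The rule for the 8 genes used their symbols alone, but this gene group and the lists were chosen with earlier results of these data known.

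Ratios carry exact conditional intervals. With 1 library per group and no tie from library to group, no test was run. On 3272 simulated cells over 32285 genes, all cells were named right and 97.0% of the intervals of 200 changed genes held the true ratio. These cells were drawn from the summed profiles of the named classes, without spread between cells of a class, free RNA, doublets or library differences. The simulation therefore checks the code, and cannot show how well naming or intervals hold in the real cells. Python 3.11.15, numpy 2.4.6, scipy 1.17.1, scikit-learn 1.9.0, igraph 0.11.9 and leidenalg 0.10.2 were used. Positions are from GENCODE vM21 and promoter windows from RefSeq (GRCm38.p6).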

Additional observations from a re-analysis of the deposited data

How the results depend on the processing

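The 17 ratios of levels were computed again under alternative settings, giving 160 values in all: 146 stayed within the counting interval, 13 moved beyond it and 1 reversed. The study's filters alone, resolutions 0.4 and 1.2, 20 principal components and removal of called doublets moved none. Averaging each cell's own CPM moved the Csf1r ratio of microglial cluster 5 to cluster 0 to 0.477. Leaving out each library in turn, the ratio of cluster 5 to cluster 0 ranged from 20.3 to 31.1 for Csf1, 0.434 to 0.482 for Csf1r, 2.03 to 2.62 for Csf2rb and 0.927 to 1.53 for Csf2ra, which reversed without library 4. Between classes it ranged from 0.749 without library 4 to 1.66 without library 6 (1.04 to 2.58) for Csf1 (fibroblast-like to neutrophil-like). The latter interval lies above 1 for counting error only and leaves out the spread between cells. The range was 1.93 to 2.33 for Csf1r (microglia-like to perivascular macrophage-like) and 6.80 to 8.404 for Csf3r (neutrophil-like to microglia-like). Csf3 rested on few cells: without the cell of most UMIs, or without library 4 or 6, its level in mural subcluster 6 was 110, 249 or 84.4 CPM. The cause of these shifts was not tested. The settings that change the cells or the clustering were applied to the ratios between classes. No paired analysis was possible because the numbered libraries are not tied to samples, so the sides of a time point could not be paired. Depth limits Csf2, with 4 UMIs in all cells, to no comparison of classes.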
